A study of Mus musculus with 14 samples.

Results

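The carboxylesterase genes *Ces1b*, *Ces1c*, *Ces1d*, *Ces1e*, *Ces1f*, *Ces1g*, *Ces2a*, *Ces2c*, *Ces2e* and *Ces2g* lie in 2 clusters on mouse chromosome 8, the chromosome that also carries *Terf2* (*Trf2*). These 10 of the 54532 genes in the count tables were taken by symbol in the livers and by Ensembl ID in the fibroblasts. They were chosen by their liver counts, since *Ces2e* and *Ces1b* were higher in senescent livers while genes next to them were not. Liver differences of the members are therefore given as a description, with no p-value. The fibroblast comparison was not used in the choice and was tested.

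RNA was sequenced from 8 livers and from 6 cultures of immortalized mouse embryonic fibroblasts (iMEFs), in which loss of TRF2, a shelterin protein that protects chromosome ends, had induced senescence. The 4 control livers came from Rosa-mTmG mice and the 4 senescent livers from Trf2F/F;Rosa-mTmG mice, and the study's methods give the Rosa-mTmG reporter as homozygous in both. All mice were kept on the C57BL/6J background, and the floxed *Terf2* allele came from the strain B6.129P2-Terf2tm1Tdl/J. Both groups had received AAV8-Tbg-Cre, a virus that expresses Cre recombinase from a hepatocyte promoter, 6 to 7 weeks earlier, and other liver cells are not its target. The iMEFs, immortalized with SV40 large T antigen, were Trf2F/F;Rosa-CreER in both groups, and 3 cultures had received vehicle and 3 had received 4-hydroxytamoxifen (4HT) 7 days earlier. The age of the mice is not given in the sources used here. No library came from iMEFs given 4HT without loss of *Terf2*, so the effects of 4HT, of active Cre and of the loss cannot be told apart. In livers the floxed alleles, with whatever part of chromosome 8 came with them, were present only in the senescent group, and effects of that segment and of the loss of TRF2 cannot be told apart.

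Carboxylesterases are serine hydrolases, mostly of the endoplasmic reticulum, that cleave esters, thioesters and amides. In hepatocytes they hydrolyse ester drugs and prodrugs, and several act on triacylglycerol and cholesteryl esters. The mouse carries more genes of the *Ces1* and *Ces2* families than humans do, as tandem copies that arose by duplication.

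Counts were scaled to TMM-normalized CPM, the reads of a gene relative to the reads of its library, and libraries held 15364450 to 20177401 reads in genes. The level of *Terf2* fell from 12.6 ± 1.35 to 3.82 ± 1.12 CPM in livers (SD, 4 per group) and from 38.2 ± 0.774 to 0.249 ± 0.0482 CPM in iMEFs (SD, 3 per group). The livers carried their markers, with a sum of the 9 hepatocyte markers in the tables (such as *Alb* and *Ttr*) of 85845 to 99755 CPM in control and 93941 to 116180 CPM in senescent livers. In iMEFs *Alb*, *Ttr*, *Fgb*, *Cps1*, *Cyp2e1*, *Hnf4a* and *Pck1* were at 0 reads in all libraries. The 7 fibroblast and stellate cell markers summed to 13202 to 14425 CPM in control and 2721 to 3958 CPM in senescent iMEFs. The methods of the study call the replicates biological.

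The 6 *Ces1* members were read from the minus strand of chromosome 8 at 93056728 to 93337308 (GRCm38, GENCODE M21), a span of 280.6 kb. The 4 *Ces2* members were read from the plus strand at 104734003 to 104969537, a span of 235.5 kb. The clusters lay 11.4 Mb apart, and the ends nearest to *Terf2* were 13.7 Mb and 2.10 Mb away from it. All 10 genes are annotated as protein coding. The longest transcripts of 2 *Ces1* members shared 73.4% to 91.4% of their aligned bases, and those of 2 *Ces2* members 76.5% to 84.0%. Between a *Ces1* and a *Ces2* member the identity was 64.0% to 68.2%.

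Such similarity can let reads be assigned to the wrong copy. Of the windows of 100 bases in the longest transcript, 1.29% in *Ces1b* and 1.39% in *Ces1c* were found unchanged in the other of this pair. In *Ces2c* 16.0% and in *Ces2a* 10.7% of the windows occurred in transcripts of annotated pseudogenes. The other 6 members, *Ces2e* and *Ces2g* included, had 0 such windows. How reads with several matches and the strand were handled is not given in the sources used here. This leaves the values of *Ces2a* and *Ces2c*, with the largest shares of such windows, less certain. *Ces1b* is exposed as well, since *Ces1c* had 67136 to 82552 reads in control livers beside 1851 to 2628 of *Ces1b*. The part of *Ces1c* reads in the *Ces1b* values was not tested.

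All 10 members were detected in each of the 8 livers, where together they took 0.634% to 0.777% of the reads in control and 0.568% to 0.699% in senescent livers. Per kb of exon, *Ces1c*, whose product is secreted into mouse plasma, had the highest level in control livers at 1788 ± 136 CPM per kb (SD, n = 4). *Ces1d*, a triacylglycerol hydrolase that takes part in the assembly of very low density lipoprotein, followed at 394 ± 90.7 CPM per kb. The lowest levels were those of *Ces2g* at 19.9 ± 1.69 and *Ces2c* at 4.73 ± 0.561 CPM per kb.

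The levels of *Ces2a* (187 ± 35.5 CPM per kb) and *Ces1g* (157 ± 5.63) overlapped between control livers. *Ces1f* followed at 122 ± 16.5 CPM per kb, below *Ces1g* in all control livers. Its highest control liver, at 142.0 CPM per kb, slightly exceeded the lowest of *Ces2a*, at 140.8. Next in this order, *Ces2e* (71.1 ± 9.97) overlapped *Ces1b* (63.3 ± 9.09), which overlapped *Ces1e* (59.6 ± 3.54). Both genes that led to the choice thus stood in the lower part of the order in control livers.

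*Ces2e*, an esterase of liver and intestine, was at 212.6, 216.7, 176.1 and 162.3 CPM in control livers 1 to 4. It was at 511.5, 571.3, 538.7 and 490.2 CPM in senescent livers 1 to 4. Every senescent liver exceeded every control liver, and the senescent livers varied little among themselves. Group means were 191.9 ± 26.9 and 528 ± 35.1 CPM (SD, 4 livers in each), which is 1.46 on the log2 scale (SE 0.11, 95% interval 1.22 to 1.70).

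*Ces1b* was at 146, 124, 124 and 103 CPM in control livers 1 to 4. It was at 204, 345, 311 and 342 CPM in senescent livers 1 to 4. The groups did not overlap, and senescent liver 1 stood well below the other three and closest to the controls. The means were 124 ± 17.9 and 301 ± 65.9 CPM (SD, 4 livers in each), and the log2 fold change was 1.27 (SE 0.16, 95% interval 0.92 to 1.63).

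A further 3 members also had groups that did not overlap, at smaller differences. *Ces1f*, a lipid hydrolase related to *Ces1d*, ranged from 335 to 466 CPM over the controls and from 522 to 625 CPM over the senescent livers, with a log2 fold change of 0.54 (SE 0.11). *Ces1c* was lower, with 3924 to 4595 CPM in the controls against 2806 to 3376 CPM, and had a log2 fold change of -0.43 (SE 0.10). *Ces1g*, which is known for its part in hepatic lipid handling, ranged from 362 to 392 CPM in controls and from 189 to 307 CPM in senescent livers, with a log2 fold change of -0.52 (SE 0.13). The *Ces1* cluster thus held members with higher and members with lower values in senescent livers.

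For the other 5 members the groups overlapped. The log2 fold changes were -0.02 for *Ces1d* (95% interval -0.48 to 0.45) and -0.05 for *Ces1e* (-0.33 to 0.22), the latter known as egasyn for holding beta-glucuronidase in the endoplasmic reticulum. In the *Ces2* cluster they were -0.30 for *Ces2a* (-0.68 to 0.08), 0.19 for *Ces2c* (-0.37 to 0.76) and 0.03 for *Ces2g* (-0.17 to 0.23). The interval of *Ces2g*, the member nearest to *Ces2e*, was the narrowest of the 10. *Ces2c* had few reads, and 1 senescent liver, at 20.9 CPM, stood above the other three at 7.56 to 11.4 CPM.

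**Figure D1:**
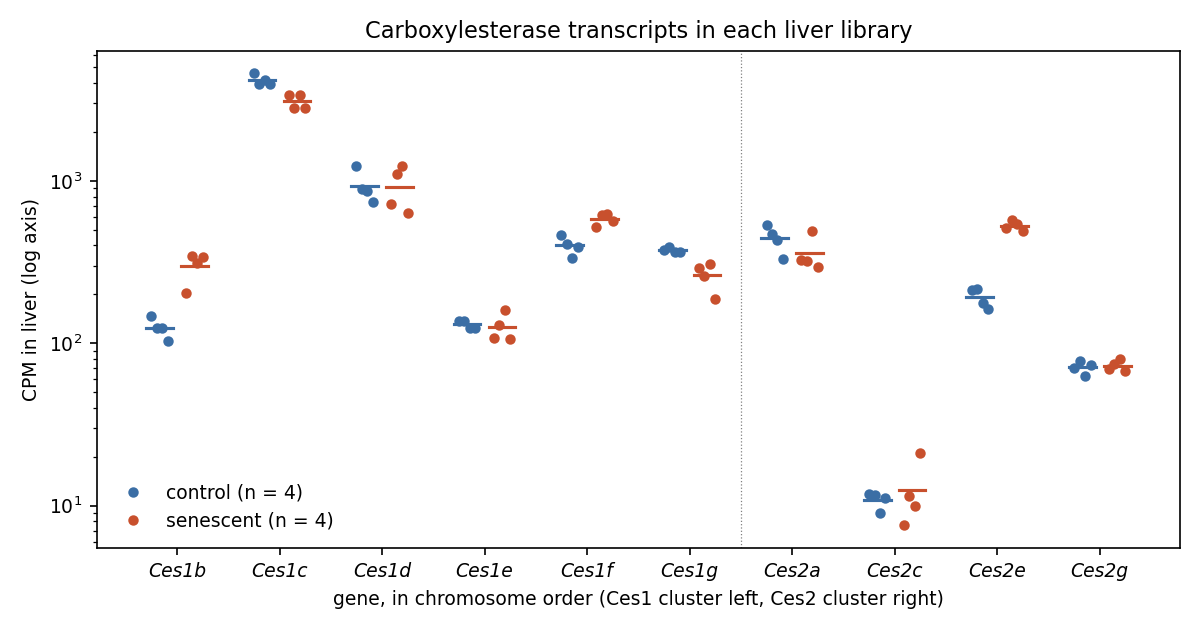
CPM of the 10 members in each liver (log axis), with genes in chromosome order, 4 control livers in blue, 4 senescent livers in red, and lines at the group means. *Ces2e* and *Ces1b* lie higher in all senescent livers, while the means of *Ces2g* are 71.1 ± 6.04 CPM in controls and 72.7 ± 5.48 CPM in senescent livers (SD).

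Of all 14270 genes tested in livers, 0.308% were called higher and 0.035% lower in senescent livers (edgeR's quasi-likelihood test, adjusted p below 0.05), and the 44 genes called higher include *Ces2e* and *Ces1b*, 2 of the members. In 2.55% of the tested genes all senescent livers exceeded all controls, against 3 members, and in 1.96% all lay below, against 2 members. These shares are the background over all genes and no test of the members. Since the livers chose the members, nothing is read from these counts. The median log2 fold change of the 10 members was 0.01, beside -0.004 for all tested genes. In whole liver, fewer cells of a type and less RNA per cell cannot be told apart.

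**Figure D2:**
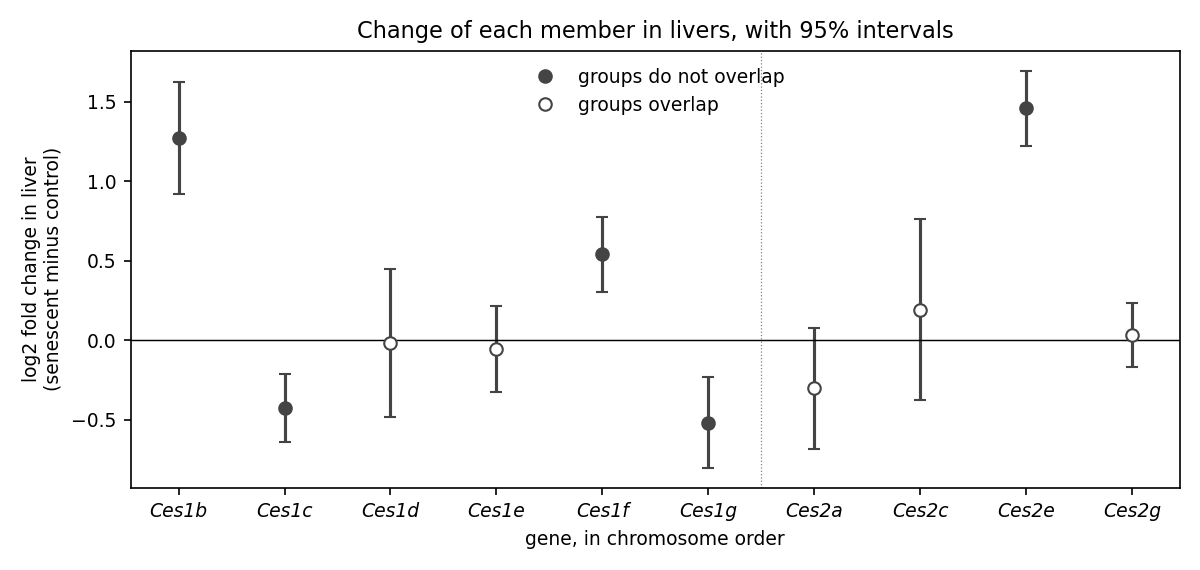
Log2 fold change (senescent minus control) of each member in livers, in chromosome order, with 95% intervals of the fit (n = 4 livers per group). Filled points are members whose groups do not overlap, with *Ces2e* at 1.46, *Ces1b* at 1.27, *Ces1f* at 0.54, *Ces1c* at -0.43 and *Ces1g* at -0.52.

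The make-up of the carboxylesterase reads differed between the groups of livers. *Ces2e* gave 25.7% to 28.0% of the reads of the 4 *Ces2* members in control livers and 48.0% to 58.5% in senescent livers. *Ces1c* gave 59.0% to 63.1% of the reads of all 10 members in control livers and 45.2% to 55.1% in senescent livers. For each 100 reads of *Ces1c* there were 2.61 to 3.18 reads of *Ces1b* in control livers and 6.05 to 12.2 in senescent livers. These shares are taken within a library and so do not depend on the scaling between libraries.

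**Figure D3:**
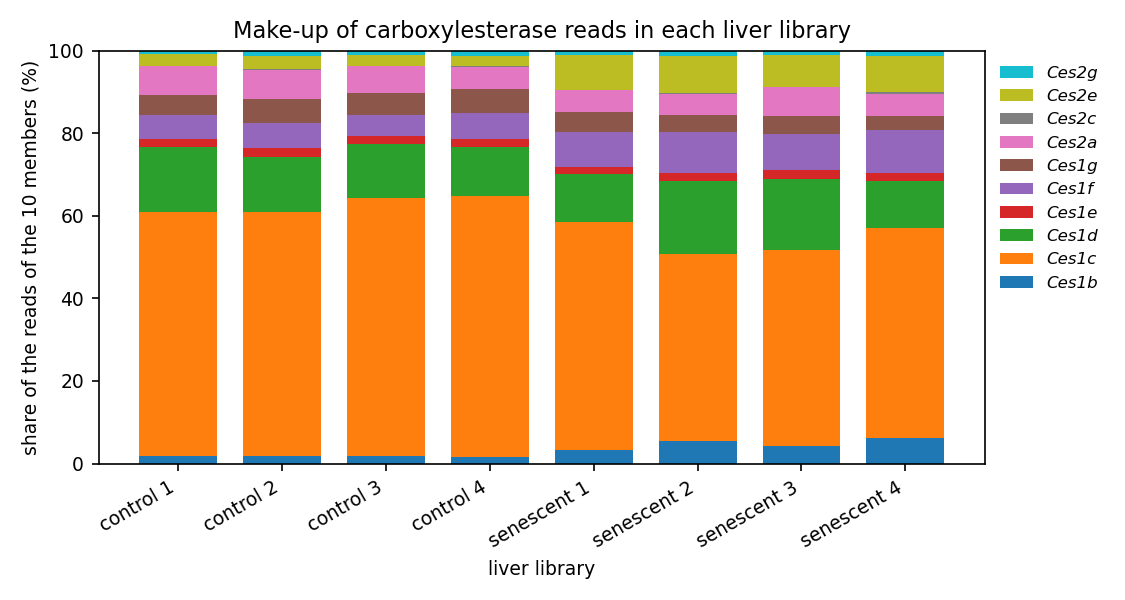
Share of the reads of the 10 members (%) that each member took in each of the 8 liver libraries. The *Ces2e* share is 2.61% to 3.26% in control and 7.56% to 9.13% in senescent livers, and the *Ces1c* share is smaller in each senescent liver than in each control.

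Promoters were compared because members next to each other differed in their values. RefSeq (GRCm38.p6) gave a promoter of 300 bases, from 250 before to 50 after the start, for 8 of the 10 members, all but *Ces1d* and *Ces1f*. *Ces1b*, higher in senescent livers, and *Ces1c*, lower in them, had closely related stretches in their promoters, identical at 185 of 197 aligned bases (93.9%). The other bases of the 300 were not aligned, and the related stretch lay farther before the start in *Ces1c* than in *Ces1b*. In the 2 sequences, written 5′ to 3′ in the direction of the gene, capitals mark the 3 shared runs of at least 20 bases. The longest was 58 bases long, and it occurred in 3 of the 32851 promoters of the table, which were those of *Ces1c* and of the 2 starts of *Ces1b*. The start of *Ces1b* nearest to the annotated gene start is shown.
Ces1b (chr8:93079968-93080267, minus strand): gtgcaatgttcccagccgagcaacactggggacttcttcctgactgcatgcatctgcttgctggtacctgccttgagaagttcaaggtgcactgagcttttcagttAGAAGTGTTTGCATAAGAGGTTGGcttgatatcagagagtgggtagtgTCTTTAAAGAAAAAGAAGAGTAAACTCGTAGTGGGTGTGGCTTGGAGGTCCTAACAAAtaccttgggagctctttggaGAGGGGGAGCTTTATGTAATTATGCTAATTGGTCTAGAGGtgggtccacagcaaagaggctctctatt
Ces1c (chr8:93131234-93131533, minus strand): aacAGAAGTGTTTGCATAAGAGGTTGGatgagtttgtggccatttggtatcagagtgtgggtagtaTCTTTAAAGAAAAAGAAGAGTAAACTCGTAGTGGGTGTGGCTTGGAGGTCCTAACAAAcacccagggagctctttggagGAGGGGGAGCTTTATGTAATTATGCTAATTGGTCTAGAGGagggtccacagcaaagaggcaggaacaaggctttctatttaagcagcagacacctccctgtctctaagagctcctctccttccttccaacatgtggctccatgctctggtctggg

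The promoters of the *Ces2* members were more distant, with 64.7% to 76.9% identity between pairs. *Ces2a*, *Ces2e* and *Ces2g* shared a run of 11 bases, CAAATTCCTGC, which began 23, 34 and 24 bases before the start and is in capitals in the 3 sequences. On either strand it was found in 8 of the 32851 promoters (0.0244%). *Ces2c* did not hold it.
Ces2a (chr8:104733753-104734052, plus strand): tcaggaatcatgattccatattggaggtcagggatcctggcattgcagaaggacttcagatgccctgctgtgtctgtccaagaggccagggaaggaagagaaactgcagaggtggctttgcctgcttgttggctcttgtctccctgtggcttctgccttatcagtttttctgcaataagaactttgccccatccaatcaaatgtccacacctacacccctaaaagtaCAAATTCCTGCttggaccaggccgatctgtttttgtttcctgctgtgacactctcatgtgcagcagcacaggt
Ces2e (chr8:104926010-104926309, plus strand): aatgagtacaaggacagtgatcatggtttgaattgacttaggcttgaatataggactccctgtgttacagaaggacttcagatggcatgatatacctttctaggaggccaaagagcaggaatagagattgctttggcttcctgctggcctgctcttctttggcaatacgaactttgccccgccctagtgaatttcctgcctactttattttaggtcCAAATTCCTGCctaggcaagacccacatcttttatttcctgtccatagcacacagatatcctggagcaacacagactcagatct
Ces2g (chr8:104961468-104961767, plus strand): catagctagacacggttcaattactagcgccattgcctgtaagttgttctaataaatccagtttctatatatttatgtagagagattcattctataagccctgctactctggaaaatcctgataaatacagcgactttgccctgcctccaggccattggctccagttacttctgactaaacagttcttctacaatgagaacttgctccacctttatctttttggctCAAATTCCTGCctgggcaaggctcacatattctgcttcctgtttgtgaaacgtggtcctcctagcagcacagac

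Other motifs were searched on both strands of the 8 promoters. The p53 half-site was present in those of *Ces2c* and *Ces2g*, and in 8.36% of all promoters. It was not matched in those of *Ces2e* and *Ces1b*. TATAAA was found in *Ces1g* and in 13.6% of all promoters, and AGGTCA, a half-site of nuclear receptors, in *Ces2a* and in 16.3%. CCAAT was found in 6 of the 8 and in 37.4% of all promoters. No searched motif contained another. A match is a description of the letters and not a site of binding.

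In iMEFs the carboxylesterases were near the limit of detection, and *Ces2e* and *Ces2g* were higher in senescent cells. *Ces2e* had 1, 1 and 0 reads in control cultures 1 to 3 and 61, 52 and 50 reads in senescent cultures 1 to 3. All senescent cultures stood far above all controls. Scaled to library size, the ratio of the summed reads was 91.4, with a counting interval of 24.9 to 761, and the fitted log2 fold change was 6.21 (adjusted p = 1.33e-06, edgeR's quasi-likelihood test, adjusted over all 13561 genes tested). Intervals of ratios cover counting error only.

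*Ces2g* had 5, 2 and 3 reads in control cultures and 37, 28 and 46 reads in senescent cultures 1 to 3. The groups did not overlap, as was so for 24.2% of tested genes in this direction. The means were 0.178 ± 0.0893 and 2.11 ± 0.478 CPM (SD, n = 3 each), with a log2 fold change of 3.54 (SE 0.43) and an adjusted p of 4.39e-05 in the same edgeR test. Its interval in iMEFs, 2.60 to 4.47, did not reach the interval of -0.17 to 0.23 seen in livers, and the difference between the tissues was not tested.

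*Ces1g* was the remaining member with reads in iMEFs. It had 11, 11 and 10 reads in control and 6, 8 and 4 reads in senescent cultures 1 to 3, too few to be tested. The groups did not overlap (26.4% of tested genes lay lower in this way), and the ratio was 0.631 with a counting interval of 0.333 to 1.16. *Ces1a*, a gene of the same family that is no member, had 8, 5 and 9 reads in control and 3, 0 and 3 reads in senescent cultures 1 to 3. These groups did not overlap either, with a ratio of 0.306 and a counting interval of 0.101 to 0.778. It too was below the filter on low counts, and without that filter its adjusted p was 0.157 in edgeR's quasi-likelihood test. *Ces1b*, *Ces1c*, *Ces1d*, *Ces1e*, *Ces1f*, *Ces2a* and *Ces2c* were at 0 reads in all 6 cultures, which allows up to 0.0274 CPM over the 109669955 reads of the iMEF libraries.

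Of the tested genes, 18.6% were called higher and 21.2% lower in senescent iMEFs, so a call was common there. Only 2 members were tested, both of which were higher. They passed the filter on low counts through the senescent cultures, without which they would not have been tested. No weight is given to this count or to the p-values of *Ces2e* and *Ces2g*. No member was called lower by edgeR, DESeq2 or limma-voom, and 0 were lower at an unadjusted p below 0.05 in edgeR. This could not come out otherwise in edgeR and limma-voom, where only *Ces2e* and *Ces2g* were tested. DESeq2 also tested *Ces1g*, which did not pass (adjusted p 0.514, DESeq2). In senescent iMEFs *Alb* and 7 other hepatocyte markers of 9 were at 0 reads. The 8 intestinal epithelium markers summed to 3.53 to 4.40 CPM in control and 3.59 to 4.64 CPM in senescent iMEFs, with *Fabp2* and *Cdx2* at 0 in both.

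*Ces2f* lies between *Ces2e* and *Ces2g*, at 104947356 to 104960047, and is no member. It had 0, 0 and 0 reads in control and 8, 5 and 12 reads in senescent iMEFs, at least 9.35-fold higher with a floor of 3 reads over the control group. It was not among the genes tested. In all 8 livers it had 1 read. The 3 adjacent genes *Ces2e*, *Ces2f* and *Ces2g* were thus each higher in every senescent iMEF culture than in any control culture, while *Ces2a* and *Ces2c* in the same cluster had no reads. Groups were apart in this direction for 24.2% of tested genes. *Ces2f* was named after its values were seen, and *Ces2e* and *Ces2g* passed the filter through the senescent cultures. Nothing is read from the count of 3.

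**Figure D4:**
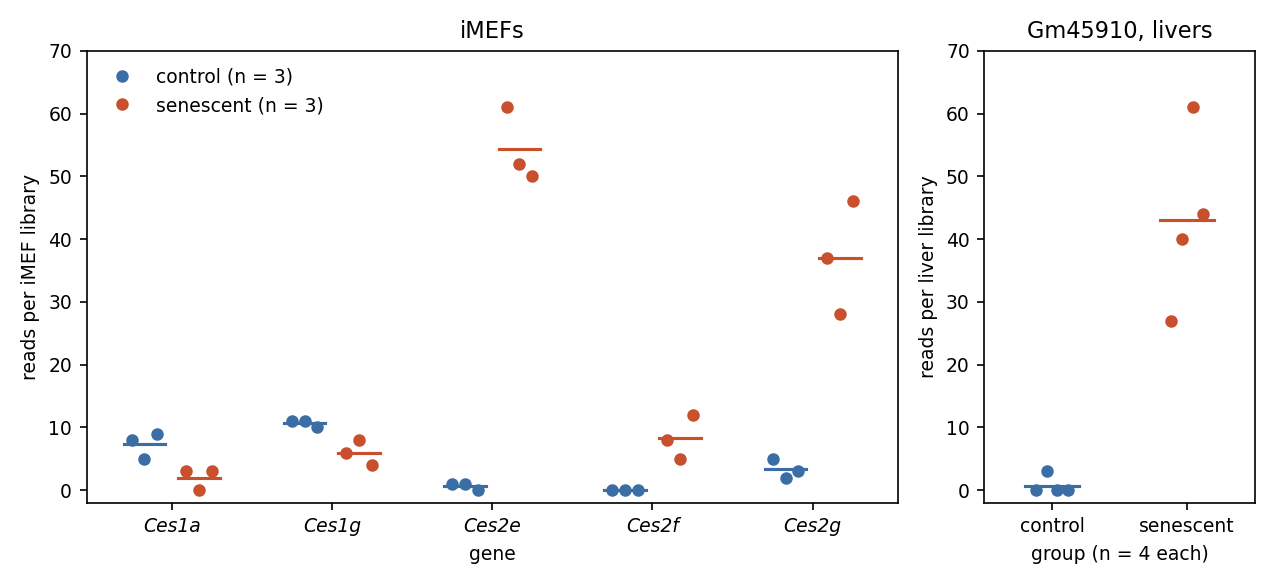
Reads per library (linear axis, not scaled to depth) of 5 carboxylesterase genes in iMEFs on the left (n = 3 per group) and of the pseudogene Gm45910 in livers on the right (n = 4 per group), with lines at the means. *Ces2e*, *Ces2f* and *Ces2g* are higher in all senescent cultures, *Ces1a* and *Ces1g* have few reads in both groups and fewer in each senescent culture than in any control, and Gm45910 has 27 to 61 reads in senescent and 0 to 3 in control livers.

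Control livers exceeded control iMEFs for all 10 members (largest adjusted p = 3.55e-09, edgeR's quasi-likelihood test on all 14 libraries), as did 44.6% of the 16503 genes tested. For the 7 members at 0 reads in control iMEFs the level in control livers was at least 211-fold (*Ces2c*) to at least 80393-fold (*Ces1c*) higher. *Ces1g*, *Ces2g* and *Ces2e* had ratios of 678 (counting interval 480 to 992), 413 (224 to 862) and 5567 (1541 to 45970). All 10 passed the filter through the livers, so no weight is given to the adjusted p or to the count of 10. The tissue, the culture, the immortalization, the genotype, the embryonic origin of the iMEFs and the virus given to the livers cannot be told apart here. Senescent iMEFs thus reached 3.10 ± 0.210 CPM of *Ces2e* (SD, n = 3), whereas control livers were at 162 to 217 CPM, on scales set within each tissue.

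The *Ces1* cluster also holds Gm45910, annotated as an unprocessed pseudogene at 93141331 to 93154116 on the minus strand, between *Ces1c* and *Ces1d*. It had 0, 3, 0 and 0 reads in control livers 1 to 4. It had 27, 40, 61 and 44 reads in senescent livers 1 to 4. All senescent livers stood clearly above the controls, 3 of which had none. The means were 0.0439 ± 0.0878 and 2.71 ± 0.949 CPM (SD, 4 livers in each), and the ratio of summed reads was 62.2 with a counting interval of 20.9 to 305 (adjusted p = 0.00271, edgeR's quasi-likelihood test). Gm45910 passed the filter on low counts only through the senescent livers, so that a gene with its control reads had to differ to be tested, and no weight is given to this p or to its place in the counts of neighbouring genes.

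The annotated transcript of Gm45910 was 90.5% identical to that of *Ces1c* and 86.9% to that of *Ces1b*, and the longest unbroken runs in common were 86 and 57 bases. No window of 100 bases was shared. In control livers *Ces1c* had 67136 to 82552 reads and Gm45910 at most 3, and in senescent livers *Ces1c* was lower and Gm45910 higher. *Ces1b* was higher in senescent livers, as Gm45910 was, with 1851 to 2628 reads in control and 3539 to 5419 in senescent livers. Whether reads from a *Ces1* member contributed to Gm45910 was not tested. In iMEFs it had 0 reads.

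Around the *Ces1* cluster, within 500 kb, 5 non-member genes were tested in livers and 1 passed, which was Gm45910. Around the *Ces2* cluster 0 of 28 passed in edgeR, DESeq2 and limma-voom, with 2 at an unadjusted p below 0.05 in edgeR. Over all genes tested in livers 0.308% were called higher and 0.035% lower by edgeR. Neighbours that were not higher were also part of the choice, so nothing is read from the 0 calls. *Ces3a* and *Ces3b*, carboxylesterases that follow the *Ces2* cluster, had log2 fold changes of -0.12 (SE 0.14) and -0.36 (SE 0.15) in livers and did not pass. In iMEFs 1 of 3 genes around the *Ces1* cluster and 11 of 28 around the *Ces2* cluster passed. *Nae1*, *E2f4*, *Cmtm4* and *Slc9a5* rose, and *B3gnt9*, *Rrad*, *Nol3*, *Tradd*, *Fbxl8*, 4931428F04Rik and K230015D01Rik fell, as did *Mmp2* near the *Ces1* cluster. That share of 39.3% stood beside 39.8% for all genes tested in iMEFs.

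Distance from *Terf2* was compared because livers of the 2 groups differed in genotype there. Without *Terf2* and the members, 0.84% of 119 genes within 5 Mb of *Terf2* and 1.68% of 179 genes 5 to 20 Mb away were called in livers, beside 0.426% of 469 genes on the rest of chromosome 8 and 0.296% of 13492 genes on other chromosomes. The directions differed between these windows. Within 5 Mb 0 genes were called higher and 1 lower, and 5 to 20 Mb away 1 higher and 2 lower. On the rest of chromosome 8 the calls were 2 higher and 0 lower, and on other chromosomes 39 higher and 1 lower. The difference between windows was not tested. The share of 1.68% rests on 3 called genes, of which Gm45910 is 1. The 4 called genes within 20 Mb were Gm45910, *Cdh1* (E-cadherin) at a log2 fold change of -1.18 (SE 0.16), *Def8* at -0.63 (SE 0.11) and *Aprt* (adenine phosphoribosyltransferase) at -0.64 (SE 0.12). Of these, *Def8* kept the call on leaving out a single liver only where that was senescent liver 1, and *Aprt* only where it was control liver 2. In iMEFs, whose groups had the same genotype, the shares were 30.3%, 33.5%, 38.1% and 40.0%.

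Across the 8 livers, the genes most like *Ces2e* were found from the log2 CPM of each library relative to the control mean, among 14260 non-members. The measure thus takes in the difference between the groups that led to the choice, and is a description only. The closest was *Ccng1* (cyclin G1), with a root mean square difference of 0.137 on the log2 scale, followed by *Snhg15* (0.245) and *Gm47140* (0.253). The mean of *Ccng1* went from 42.5 ± 2.26 to 119 ± 18.6 CPM in livers (SD, 4 per group), or 1.49 (SE 0.11) on the log2 scale. The genes closest to *Ces1b* were *Sytl1* (0.224), *Tpte* (0.270) and *Tmem43* (0.281). Control and senescent means were low for *Gm47140* (0.373 and 1.04 CPM) and *Tpte* (1.14 and 2.76 CPM). Neither was called (adjusted p = 0.307 and 0.314, edgeR's quasi-likelihood test). Between *Ces2e* and *Ces1b* themselves the difference was 0.271. Among the members the closest pairs were *Ces1e* with *Ces2g* (0.142) and *Ces1c* with *Ces1g* (0.170).

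Genes of related pathways were counted from lists. Over all genes tested by edgeR, 0.308% were called higher and 0.035% lower in livers, and 18.6% and 21.2% in iMEFs. A list with 0 calls in livers is near that share, and nothing is read from it. Of 19 other lipases and esterases tested in livers, 0 passed in edgeR, DESeq2 and limma-voom (1 at an unadjusted p below 0.05), and in iMEFs 3 of 11 rose and 3 fell. In iMEFs *Nceh1*, a cholesteryl ester hydrolase, rose by 0.98 (SE 0.10), while *Lipa*, the lysosomal acid lipase, and *Pon3*, a lactonase, fell by 0.68 (SE 0.13) and 0.55 (SE 0.16) on the log2 scale. Of 12 xenobiotic receptors and partners in livers, such as CAR (*Nr1i3*) and PXR (*Nr1i2*), 0 passed in any of these tools (2 at an unadjusted p below 0.05 in edgeR). In iMEFs 1 of 6 rose, which was *Por*, and *Rxra* and *Keap1* fell.

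Targets of CAR and PXR, the nuclear receptors that induce drug-metabolising enzymes, gave 0 calls among 13 in livers with the same tools (2 at an unadjusted p below 0.05 in edgeR). In iMEFs *Alas1* rose and *Gstm1* fell among 3 tested, and *Alas1* was not called by DESeq2 or without the filter on low counts. Of 14 NRF2 targets, genes of the oxidative stress response, *Ephx1* passed in livers, with 407 ± 91.4 CPM in controls and 738 ± 32.6 CPM in senescent livers (SD, 4 per group; log2 fold change 0.86, SE 0.14), and in iMEFs 2 of 12 rose, *Gclc* and *Ephx1*, and 4 fell, led by *Gstm1*. DESeq2 called 3 NRF2 targets higher and 2 lower in iMEFs, and size factors of the RLE kind gave 4 and 4. All 20 p53 targets were tested in both tissues, of which 12 rose in livers and 16 in iMEFs, and 0 fell in either by edgeR, DESeq2 or limma-voom, nor at an unadjusted p below 0.05 in edgeR. In livers these included *Phlda3* at a log2 fold change of 4.00 (SE 0.17) and *Aen* at 1.62 (SE 0.13), and in iMEFs *Ccng1*, *Cdkn1a* and *Eda2r* had the smallest p.

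Markers of other cell types were counted beside the liver values. Macrophage and leukocyte markers summed to 175 to 363 CPM in control and 320 to 391 CPM in senescent livers, endothelial markers to 229 to 265 and 261 to 314 CPM, and cholangiocyte markers to 56.5 to 112 and 79.5 to 135 CPM. Fibroblast and stellate cell markers summed to 304 to 386 and 360 to 433 CPM. The 8 intestinal epithelium markers, a tissue in which *Ces2* genes are also expressed, summed to 56.5 to 89.6 and 36.2 to 94.0 CPM, with *Cdx1*, *Cdx2*, *Cdh17* and *Alpi* at 0 reads. Adipocyte markers summed to 5.18 to 8.09 and 6.81 to 8.32 CPM. Of the hepatocyte, pericentral, periportal and other cell type lists, 0 genes passed in livers by edgeR or limma-voom, with 7 of 51 at an unadjusted p below 0.05 in edgeR, and *Dcn* and *Sds* passed by DESeq2. With 0.308% of all tested genes called higher and 0.035% lower in livers by edgeR, nothing is read from the 0 calls. The part of the shifts in marker sums in the values of the members was not tested.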

How the data were processed

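RNA of 14 libraries was prepared, sequenced and aligned at Novogene. The authors deposited raw counts of reads per gene, 1 table for iMEFs and 1 for livers, made with STAR and featureCounts on mm10 according to the submitters' processing notes, without versions. They also deposited normalized tables, which were not used. Counts were scaled with TMM factors, and iMEFs and livers had separate fits in edgeR 4.0.16 (filterByExpr, quasi-likelihood test, Benjamini-Hochberg adjustment over all genes tested, threshold 0.05). Control livers and control iMEFs were compared in 1 fit over all 14 libraries. Intervals of ratios are exact binomial at 95%, and a group at 0 reads was set to a floor of 3 reads.

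The members and the gene lists were chosen with earlier results of these data known. The text names all members and *Terf2*, and, if they passed, the 3 genes of a list with the smallest p and genes within 500 kb of a cluster. It also names the 3 genes most like *Ces2e* and *Ces1b*. *Ces1a*, *Ces2f*, *Ces3a*, *Ces3b* and the genes called near *Terf2* were named after their values were seen. Some genes of the lists that passed in iMEFs are given by their counts only.

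GENCODE M21 (GRCm38) held 54495 of the 54532 gene IDs and gave positions and exon lengths. RefSeq promoters (GRCm38.p6) and GENCODE transcripts were aligned with Biopython 1.88. The alternatives were RLE factors, no filter on low counts, DESeq2 1.42.0, limma-voom (limma 3.58.1), a replicate block and leaving out each library. The edgeR steps were also run on simulated data, whose outcome is not given here, and nothing is read from that run.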

Additional observations from a re-analysis of the deposited data

Results flagged for a closer look

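*Ces2a* in senescent liver 3 was at 494 CPM, far from the other three senescent livers, which lay between 296 and 324 CPM, and the gap was 0.856 of the range of the group. This was the 1 library set apart among the 20 groups of 4 livers examined, 2 for each member. Chance sets about 1 in 20 such groups apart.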

How the results depend on the processing

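The tested results on members changed neither direction nor side of the threshold under the alternatives run. In iMEFs 2 members were higher and 0 lower under each of the 11 alternatives, with log2 fold changes of 5.70 to 6.57 for *Ces2e* and 3.25 to 3.96 for *Ces2g* (largest adjusted p 9.87e-05 and 7.54e-04). All 10 members were higher in control livers than in control iMEFs under each of 11 alternatives. As said above, no weight is given to these counts and p-values. In livers the log2 fold change stayed between 1.39 and 1.53 for *Ces2e* and between 1.19 and 1.42 for *Ces1b* under 13 alternatives. The signs of 4 other members, *Ces1d*, *Ces1e*, *Ces2c* and *Ces2g*, whose intervals span 0, changed in some.

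Between same-numbered samples, correlations of deviations from group means were -0.171 to -0.005 in iMEFs and -0.083 to 0.237 in livers, highest for liver number 4. Differently numbered samples were not compared in this way, so whether the replicate numbers pair samples was not tested. With the replicate number as a block, 2 members were higher and 0 lower in iMEFs (*Ces2e* 6.22, adjusted p 9.87e-05, and *Ces2g* 3.53, adjusted p 6.40e-04), and *Ces2e* and *Ces1b* in livers were at 1.47 and 1.26. Under the block *Alas1* and *Por* were not called in iMEFs, and NRF2 targets gave 2 higher and 1 lower calls beside 2 and 4.

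Without the filter on low counts *Ces2f* was tested in iMEFs, with an adjusted p of 1.62e-04 in edgeR, and *Ces1g* did not pass (adjusted p 0.467). Gm45910 passed under all 13 alternatives (largest adjusted p 0.0145), as did *Cdh1* (0.0240), while *Def8* passed under 5 and *Aprt* under 4. Over all genes in livers, 101 were called higher and 35 lower by DESeq2 and 97 and 33 without the filter, beside 44 and 5. Leaving out 1 library gave 32 to 49 higher and 2 to 10 lower calls in livers, with 2 lower without control 3 or senescent 4, 3 without control 1 or senescent 2, and 10 without senescent 1. In iMEFs it gave 1624 to 2790 higher and 2168 to 3117 lower calls beside 2522 and 2878, with the lowest counts without control 2. Most members had 0 reads in iMEFs, which limits what that comparison can show.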
